A study of Homo sapiens with 6 samples.

Results

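The enzymes that write, copy and remove DNA methylation, together with the core of Polycomb repressive complex 2 (PRC2), were examined in LNCaP prostate cancer cells with and without PACT. The group was chosen by gene symbol and holds 10 of the 29806 genes in the deposited counts, namely *DNMT1*, *DNMT3A*, *DNMT3B*, *UHRF1*, *TET1*, *TET2*, *TET3*, *EZH2*, *EED* and *SUZ12*. LNCaP cells, an established human line from prostate cancer, respond to androgen, and PACT is the protein encoded by *PRKRA*, which binds double-stranded RNA. LNCaP parental cells, wild type for PACT (3 dishes), were compared with LNCaP PACT KO cells (3 dishes), in which *PRKRA* had been targeted with CRISPR-Cas9. All cells were grown in RPMI-1640 with serum, with no further treatment given in the labels, and RNA was taken at 48 h after plating. The methods of the study instead set the harvest by confluence, the same for both groups, and name no time. The knockout cells were 1 clone grown from a single colony, per the supplement of the study, so a difference between that clone and the parental pool cannot be told apart from the loss of PACT.

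DNA methylation silences genes at CpG dinucleotides. DNMT3A and DNMT3B place new methyl groups, whereas DNMT1 copies the pattern onto the daughter strand after replication, guided there by UHRF1, which recognises DNA that is methylated on a single strand. The TET enzymes oxidise methylcytosine and so begin its removal. PRC2 silences genes by methylating lysine 27 of histone H3 through its catalytic subunit EZH2, which needs EED and SUZ12 for activity. EZH2 is known for its high level in advanced prostate cancer, and hypermethylated promoters are a familiar feature of the disease.

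The libraries held 19930060 to 24940838 reads on genes, and 14462 genes had enough reads to be tested, all 10 enzymes among them. *PRKRA* had 882, 809 and 866 reads in the parental dishes and 291, 331 and 243 in the knockout dishes, and it was lower in every library labelled PACT KO (log2FC -1.57, SE 0.07, where log2FC is the log2 fold change of PACT KO over parental cells and SE its standard error). Luminal prostate markers were present in each library, with a summed level of 3697 to 3731 CPM (read counts scaled to library size) in parental and 3741 to 3786 CPM in PACT KO cells. Of the 9, 4 were lower and 2 higher, *KLK3* (log2FC -2.50) and *KLK2* (-0.84) among the lower, and 2 were lower when any of the parental dishes or PACT KO replicate 3 was left out. Of 13 markers of other cell types, 3 were tested, *COL1A1*, *VWF* and *SYP*, and *KRT5*, *COL1A2*, *PECAM1* and *CD3E* were at 0 in every library. The summed level of those 13 markers was 56.2 to 57.0 CPM in parental and 56.0 to 63.4 CPM in PACT KO cells, with *COL1A1* higher (log2FC 0.52) and *VWF* lower (-0.61). The part of these differences in the results was not tested.

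PACT KO cells had less mRNA for the enzymes that copy DNA methylation at the replication fork and for the catalytic subunit of PRC2, and more for 2 of the enzymes that remove methyl groups. *UHRF1*, *DNMT1* and *EZH2* were lower, *TET1* and *TET2* were higher, and the other 5 genes did not pass the test (edgeR's quasi-likelihood test with Benjamini-Hochberg adjustment, FDR under 0.01). Among all genes tested, 18.8% were lower and 15.3% higher by the same rule, 34.2% in all, and 10 genes are too few to set their counts apart from that background. Only *UHRF1* also passed an absolute fold change of 1.5, a rule that called 2.65% of all genes as lower and 3.07% as higher. In the 5 genes that passed, the dishes of the groups did not overlap, and in the other 5 they did. That is near the share over all genes tested, of which 52.2% did not overlap, 27.2% with PACT KO below and 25.1% with PACT KO above. In bulk RNA such as this, fewer cells that express a gene and less RNA per cell cannot be told apart.

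**Figure D1:**
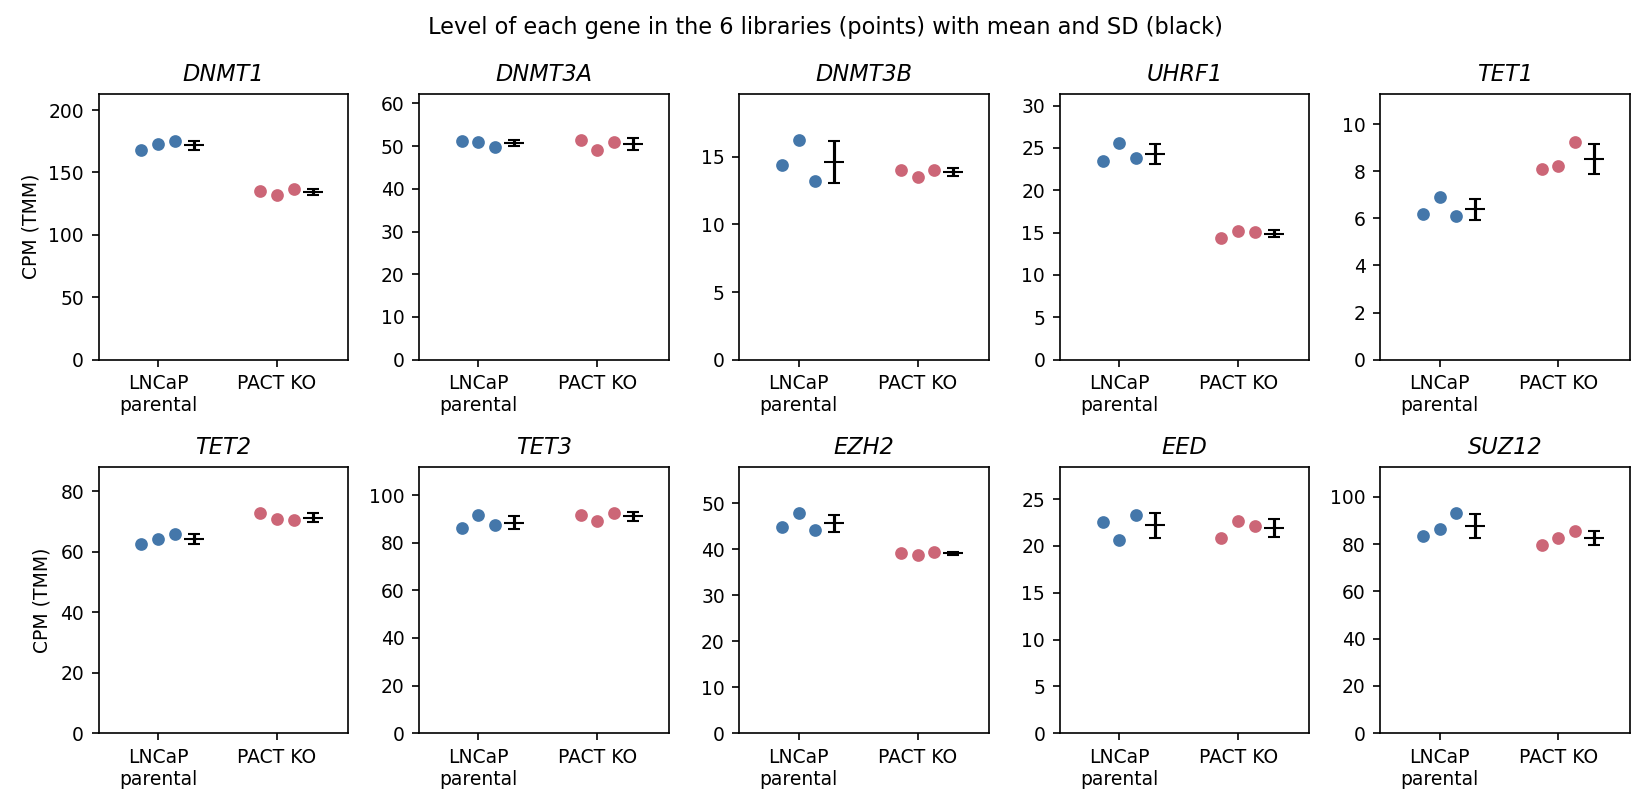
Level of each of the 10 genes in CPM, scaled by TMM, in every library (points), with the group mean and SD in black and axes starting at 0. The 3 PACT KO points of DNMT1, UHRF1 and EZH2 lie below all parental points, those of TET1 and TET2 lie above them, and the groups overlap in the other 5 panels.

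*DNMT1*, the maintenance methyltransferase (NCBI Gene number 1786, chr19:10133346-10194953, GRCh38.p14), had 3811, 3731 and 4338 reads in the parental dishes and 3333, 3210 and 2758 in the PACT KO dishes. In CPM these were 168, 173 and 175 against 135, 132 and 136. The highest knockout dish was well below the lowest parental dish. The means were 172 ± 3.71 in parental and 134 ± 2.25 CPM in PACT KO cells (SD, n = 3 each), giving a log2FC of -0.36 (SE 0.03, FDR = 1.08e-12, edgeR). Expressed as a level, *DNMT1* mRNA fell by 21.8%.

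*UHRF1*, which brings DNMT1 to newly replicated DNA (NCBI Gene number 29128, chr19:4903080-4962154), moved most of the 10. Its reads numbered 532, 554 and 591 in parental and 355, 370 and 305 in PACT KO dishes, or 23.4, 25.6 and 23.9 CPM against 14.4, 15.2 and 15.1 CPM. All knockout dishes sat near 15 CPM, and no dish came between the groups. The log2FC was -0.71 (SE 0.07, 95% interval -0.85 to -0.56, FDR = 1.75e-10, edgeR), and the level fell by 38.7%. Its paralog *UHRF2*, which does not take its place in maintenance methylation, had 24.5, 23.1 and 26.1 CPM in parental and 22.9, 23.1 and 24.6 CPM in PACT KO dishes and did not pass the test (log2FC -0.07, SE 0.06, FDR = 0.436, edgeR).

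DNMT1, UHRF1 and EZH2 are known to be made most in dividing cells, and genes of dividing cells were lower in the same libraries. All of a list of 22 such genes were lower in edgeR as well as in DESeq2, with 0 higher also at an unadjusted p under 0.05, a median log2FC of -0.54 and a range of -0.78 to -0.34. Their summed level was 2441 to 2505 CPM in parental and 1685 to 1769 CPM in PACT KO dishes. The smallest p values among those past 1.5-fold were those of *RRM2* (log2FC -0.78, SE 0.04) and *TYMS* (-0.72, SE 0.04), both enzymes of nucleotide supply, the replicative helicase gene *MCM5* (-0.59, SE 0.04) and the mitotic gene *BIRC5* (-0.63, SE 0.04). *UHRF1* fell by more than the median of that list, and *DNMT1* and *EZH2* by less. The part of proliferation in the change of these 3 genes was not tested, and ratios to the summed list are given further on.

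The de novo methyltransferases did not pass the test, and their groups overlapped. *DNMT3A* (NCBI Gene number 1788, chr2:25227874-25342590) had 1163, 1103 and 1236 reads in parental and 1272, 1192 and 1031 in PACT KO dishes. Its means were 50.7 ± 0.706 CPM and 50.5 ± 1.31 CPM (SD, n = 3 each), a log2FC of -0.01 with a 95% interval of -0.09 to 0.07 (FDR = 0.916, edgeR). For *DNMT3B* (NCBI Gene number 1789, chr20:32762385-32809356) there were 327, 351 and 327 reads in parental and 347, 328 and 284 in PACT KO dishes. At this lower depth the log2FC of -0.07 had a wider interval, -0.25 to 0.10 (FDR = 0.509, edgeR). *DNMT3L*, a catalytically inactive partner of both enzymes in germ cells, had 0 reads in all 6 libraries, which allows at most 0.148 CPM in the shallowest. Limits of this kind cover counting error only.

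Among the demethylating enzymes the transcript of the lowest level rose most. *TET1* (NCBI Gene number 80312, chr10:68560337-68694487) had 140, 149 and 151 reads in parental and 200, 200 and 187 in PACT KO dishes, or 6.17, 6.89 and 6.10 CPM against 8.09, 8.22 and 9.25 CPM. Every knockout dish was above every parental dish. The log2FC was 0.41 (SE 0.10, 95% interval 0.21 to 0.62, FDR = 9.93e-04, edgeR), a rise of 33.3%. *TET2* (NCBI Gene number 54790, chr4:105145875-105279803) had 62.8, 64.3 and 65.9 CPM in parental and 72.9, 70.8 and 70.4 CPM in PACT KO dishes. Here too the groups were separate, but the rise was smaller, 10.9% (log2FC 0.15, SE 0.04, FDR = 9.59e-04, edgeR). *TET3* (NCBI Gene number 200424, chr2:73983631-74135498), the most abundant of the family per length, had 88.3 ± 2.77 CPM in parental and 91.1 ± 1.74 CPM in PACT KO cells (SD, n = 3 each). Its groups overlapped, and the log2FC of 0.04 had a 95% interval of -0.03 to 0.11 (FDR = 0.306, edgeR). Part of *TET3* overlaps the protein-coding gene *BOLA3*, which had 323 to 454 reads, and the use of strand in counting is not stated, so a small share of reads could belong to either gene.

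Within PRC2 the catalytic subunit fell and its partners did not pass the test. *EZH2* (NCBI Gene number 2146, chr7:148807383-148884291) had 1018, 1033 and 1095 reads in parental and 967, 943 and 798 in PACT KO dishes, or 44.8, 47.8 and 44.2 CPM against 39.1, 38.8 and 39.5 CPM. The knockout dishes were within 1 CPM of each other and all below the parental dishes. The log2FC was -0.22 (SE 0.04, 95% interval -0.31 to -0.13, FDR = 6.36e-05, edgeR), and the level fell by 14.2%. *EED*, which reads trimethylated lysine 27 and stimulates the enzyme (NCBI Gene number 8726, chr11:86244753-86287615), had 22.2 ± 1.36 CPM in parental and 21.9 ± 0.969 CPM in PACT KO cells (SD, n = 3 each). Its log2FC of -0.02 had a 95% interval of -0.16 to 0.12 (FDR = 0.815, edgeR). *SUZ12*, the scaffold of the complex (NCBI Gene number 23512, chr17:31937007-32001038), had 83.4, 86.5 and 93.2 CPM in parental and 79.7, 82.5 and 85.6 CPM in PACT KO dishes. Its log2FC was -0.09 (SE 0.04, 95% interval -0.17 to -0.01), which missed the threshold after adjustment (FDR = 0.0534, edgeR), with groups that overlapped. It was -0.04 without parental replicate 3 (FDR = 0.468, edgeR) and -0.13 without parental replicate 1 (FDR = 0.0128, edgeR). A transcribed pseudogene, *SUZ12P1*, had 104 to 142 reads per library, and reads could be shared between the copies.

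**Figure D2:**
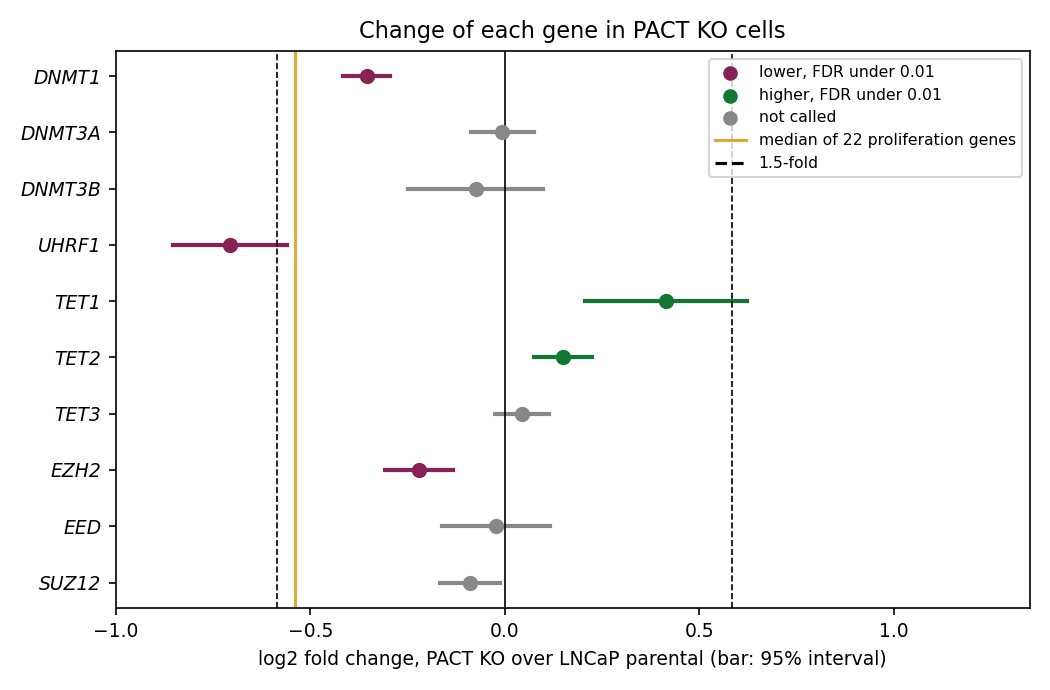
Log2 fold change of each gene in PACT KO over LNCaP parental cells (points) with its 95% interval (bars), coloured by the call at an FDR under 0.01. The dashed lines mark 1.5-fold, which only UHRF1 passes, and the yellow line marks the median of 22 proliferation genes at -0.54, between UHRF1 and DNMT1.

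*EZH1*, the paralog of *EZH2* that predominates in resting cells, moved the other way. It had 45.8, 47.7 and 47.2 CPM in parental and 53.7, 57.6 and 59.6 CPM in PACT KO dishes, with no overlap. The log2FC was 0.28 (SE 0.04, FDR = 8.19e-07, edgeR). The balance of the catalytic subunits therefore differed between the groups in every dish. The log2 ratio of *EZH2* to *EZH1* CPM was -0.03, 0.00 and -0.09 in parental and -0.45, -0.57 and -0.59 in PACT KO dishes, a difference of -0.50. Read counts are not corrected for length in such a ratio, so its level has no meaning across genes, only its difference between groups.

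Other ratios within a library showed which genes moved apart. The log2 ratio of *UHRF1* to *DNMT1* differed by -0.34 between PACT KO and parental cells, with groups that did not overlap, so *UHRF1* fell beyond its partner. For *DNMT1* relative to the summed TET transcripts the difference was -0.46, from 0.11 ± 0.03 to -0.35 ± 0.01 (SD, n = 3 each), again without overlap. The ratio of *EZH2* to *EED* differed by -0.20, with the groups only just apart (0.90 in the highest PACT KO and 0.91 in the lowest parental dish) and a difference of -0.12 without parental replicate 2, whereas those of *EZH2* to *SUZ12* (difference -0.13) and of *DNMT3B* to *DNMT3A* (difference -0.06) overlapped between the groups. With 3 dishes against 3, an exact permutation test, 2-sided, cannot give a p under 0.10, the value reached by every ratio without overlap (0.13 after Benjamini-Hochberg adjustment over the 9 ratios computed). The ratio of *EZH2* to *SUZ12* gave p = 0.20 (adjusted 0.23) and that of *DNMT3B* to *DNMT3A* p = 0.70 (adjusted 0.70) in the same exact permutation test. A threshold of 0.05 thus cannot be reached in this design.

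Set against the summed level of the 22 proliferation genes, the 3 genes that fell did not all move one way. The log2 ratio to that sum was higher in PACT KO dishes by 0.30 for *EZH2* and by 0.16 for *DNMT1*, and the difference for *UHRF1* was -0.17. In each of these comparisons the dishes of the groups did not overlap (exact permutation test, 2-sided, p = 0.10 each, the smallest possible).

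**Figure D3:**
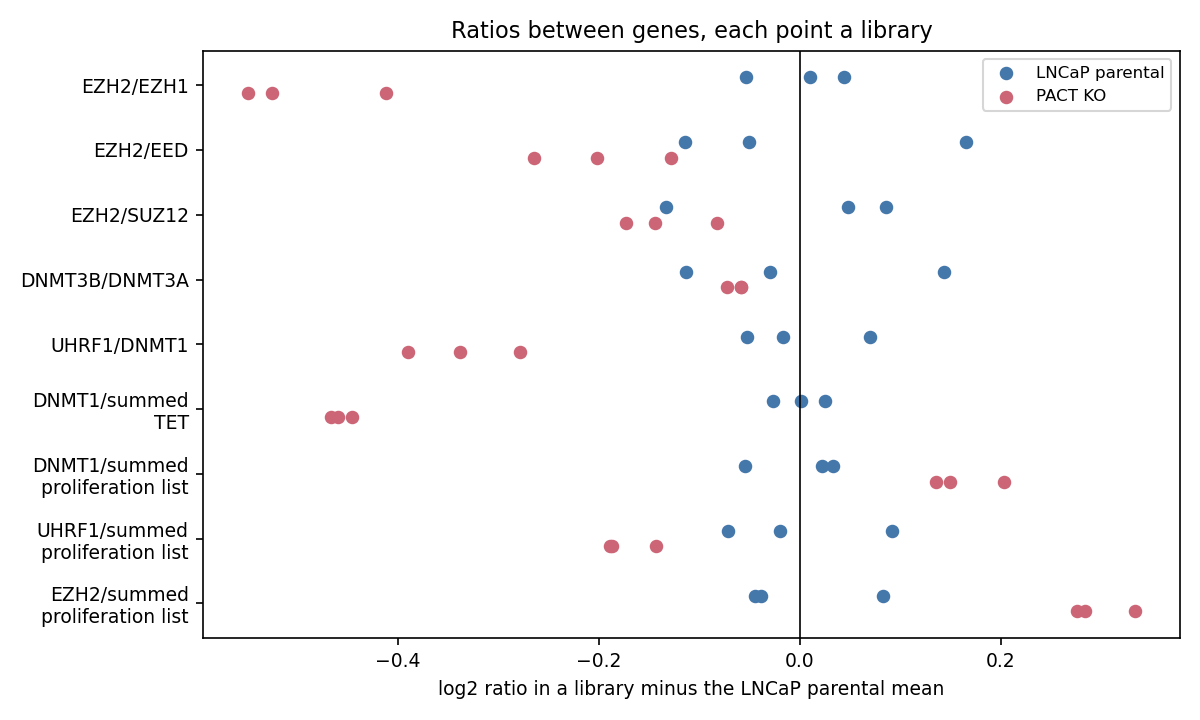
Log2 ratio of each pair of genes, or of a gene to a summed list, in every library (points), given as the difference from the LNCaP parental mean. The PACT KO points lie apart from the parental points for 7 of the 9 ratios, and overlap them for EZH2 over SUZ12 and DNMT3B over DNMT3A.

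Levels can be compared between genes only per length, and the CPM per kilobase of exon (RPKM) was computed for this. In parental cells *DNMT1* led with 31.5 ± 0.680 RPKM, followed by *SUZ12* with 19.5 ± 1.12, *EZH2* with 14.9 ± 0.622, *TET3* with 7.70 ± 0.241 and *EED* with 6.11 ± 0.374 RPKM (SD, n = 3 each). Then came *UHRF1* and *DNMT3A*, both at 4.72 RPKM and with overlapping ranges, *TET2* at 4.09, *DNMT3B* at 3.16 and *TET1* at 0.687 RPKM. All other neighbours in this order had ranges that did not overlap, although the ranks from *TET3* to *TET2* depend on the transcript length used. In PACT KO cells *UHRF1* moved from rank 6 to rank 9 at 2.89 ± 0.0885 RPKM, where it overlapped *DNMT3B* at 2.99 ± 0.0697 RPKM, and *DNMT3A* at 4.70 RPKM overlapped *TET2* at 4.54 RPKM. The ranks of the other genes from *DNMT1* to *EED*, and of *TET1*, did not change. On the same scale *EZH1* had 10.1 RPKM in parental and 12.3 RPKM in PACT KO cells, against 14.9 and 12.8 RPKM for *EZH2*. The 3 highest levels per length were those of the maintenance methyltransferase and 2 subunits of PRC2, and *TET1* was the only one of the 10 under 1 RPKM in both groups.

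**Figure D4:**
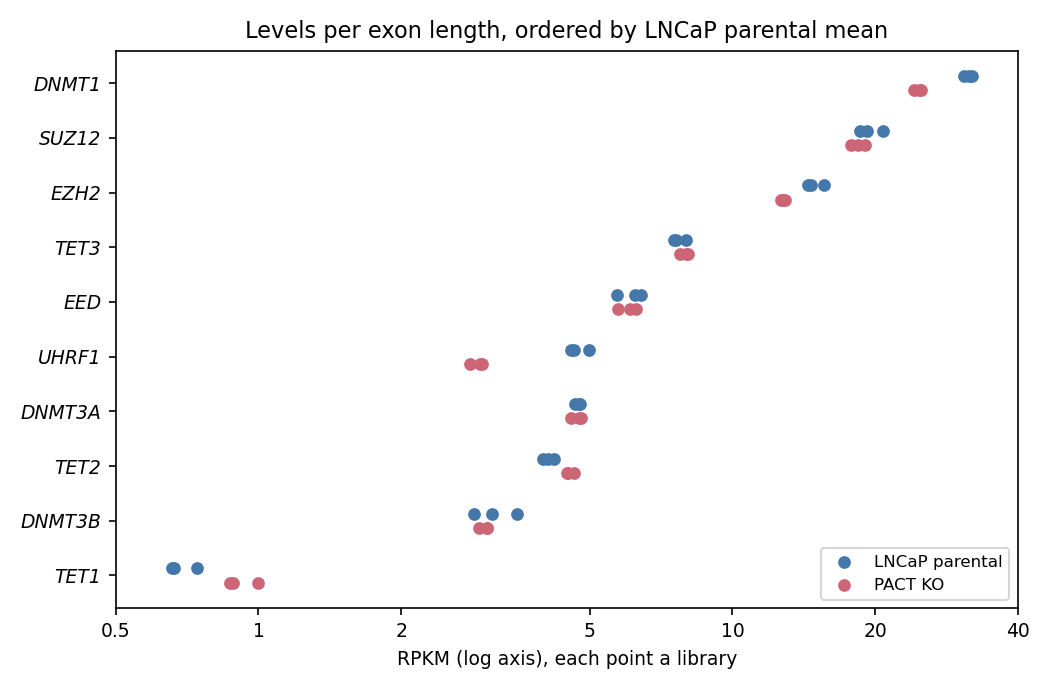
Level of each gene in RPKM on a log axis, in every library (points), ordered by the LNCaP parental mean. DNMT1 leads in both groups, TET1 is last, and UHRF1 falls from 4.72 to 2.89 RPKM and passes below DNMT3A, TET2 and DNMT3B.

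Since *DNMT1*, *UHRF1* and *EZH2* fell together, the sequences around their starts are shown, with that of *SUZ12*, which did not pass the test, for comparison. Each is the RefSeq window of 250 bases before to 50 after an annotated start, 5′ to 3′ on the strand of the gene (GRCh38.p14), and all 10 genes matched the RefSeq table. Capitals mark the letters of an E2F site, searched on both strands as TTTCCCGC, TTTCGCGC, TTTGCCGC or TTTGGCGC. E2F factors drive genes needed for DNA replication. For *UHRF1* and *EZH2* the window listed first for the gene is shown.
DNMT1 (chr19:10194904-10195203, minus strand): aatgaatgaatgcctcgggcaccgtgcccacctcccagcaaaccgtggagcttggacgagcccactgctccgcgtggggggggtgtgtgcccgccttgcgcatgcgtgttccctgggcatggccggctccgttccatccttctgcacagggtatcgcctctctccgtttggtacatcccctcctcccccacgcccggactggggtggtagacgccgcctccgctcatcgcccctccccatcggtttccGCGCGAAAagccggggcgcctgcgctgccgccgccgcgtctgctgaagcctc
UHRF1 (chr19:4909251-4909550, plus strand): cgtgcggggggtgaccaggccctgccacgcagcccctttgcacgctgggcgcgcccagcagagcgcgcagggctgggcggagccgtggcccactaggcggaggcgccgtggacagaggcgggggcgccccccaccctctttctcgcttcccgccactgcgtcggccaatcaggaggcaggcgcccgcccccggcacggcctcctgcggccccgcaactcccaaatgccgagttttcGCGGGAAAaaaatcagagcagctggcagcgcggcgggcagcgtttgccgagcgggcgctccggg
EZH2 (chr7:148884242-148884541, minus strand): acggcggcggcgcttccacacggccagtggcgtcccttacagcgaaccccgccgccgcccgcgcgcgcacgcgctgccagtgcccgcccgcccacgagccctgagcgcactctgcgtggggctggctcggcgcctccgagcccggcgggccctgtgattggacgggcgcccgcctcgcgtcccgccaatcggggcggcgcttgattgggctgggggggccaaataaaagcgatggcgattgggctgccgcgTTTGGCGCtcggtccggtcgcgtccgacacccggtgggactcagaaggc
SUZ12 (chr17:31936757-31937056, plus strand): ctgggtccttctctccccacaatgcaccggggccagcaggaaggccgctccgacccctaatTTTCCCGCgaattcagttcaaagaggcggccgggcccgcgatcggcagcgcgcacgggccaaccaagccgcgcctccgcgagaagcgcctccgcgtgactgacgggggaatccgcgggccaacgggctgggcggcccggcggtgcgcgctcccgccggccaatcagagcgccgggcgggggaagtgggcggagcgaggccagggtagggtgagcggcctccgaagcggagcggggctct

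Counted from the first transcribed base as 1, with no base 0, the letters began at base -2 in *DNMT1*, -14 in *UHRF1*, 2 in *EZH2* and -189 in *SUZ12*. A further match began at base -160 from another annotated start of *UHRF1*. In all, 4 of the 10 genes had such letters in at least 1 of their windows, against 6.59% of the 11195 tested genes with a window and 10 of 18 genes of the proliferation list. None of the 7 windows of *DNMT3A* and *DNMT3B*, of the 7 windows of the TET genes or of the single window of *EED* held them. The single window of *DNMT3B*, chr20:32779602-32779901, lies inside the gene, past the first base of its span at 32762385. The sequence around that base was not searched, nor was that around the first base of the spans given for *UHRF1* and *TET3*. The same search for CCAAT found it in 7 of the 10 genes against 43.2% of tested genes, and for TTTGAA or TTCGAA in 3 of the 10 against 14.9%. A gene with more windows has more chances of a match. The 10 genes had 22 windows, and the 11195 tested genes had 16174. Per window, the shares were 22.7% against 4.88% for the E2F letters, 40.9% against 34.9% for CCAAT and 13.6% against 11.5% for TTTGAA or TTCGAA. The 4 matches are a description of letters, and no binding was measured.

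Cofactors, readers and erasers around the DNA methyltransferases were listed next, and their counts, like those of the lists that follow, are to be read against the 18.8% lower and 15.3% higher over all genes tested. Of 23 listed genes, 21 were tested, of which 6 were lower, 5 higher and 10 not called, with a median log2FC of -0.04 against 0.00 over all genes tested. The count of higher genes rested on single dishes, as it was 2 without parental replicate 1, 3 without parental replicate 2 and 3 without PACT KO replicate 2. *HELLS*, a remodelling ATPase that opens chromatin for DNA methylation, had 13.8, 16.0 and 19.4 CPM in parental and 10.6, 11.5 and 10.5 CPM in PACT KO dishes. It was lower in every knockout dish, though the parental dishes themselves were spread, and its log2FC was -0.60 (SE 0.10, FDR = 2.46e-06, edgeR). *CDCA7*, the partner that recruits HELLS and a gene picked here after its values were seen, had a log2FC of -0.39 (SE 0.08, FDR = 1.62e-04, edgeR). *GADD45B*, a stress-induced gene linked to active demethylation, fell from a low level of 3.72 ± 0.395 in parental to 2.11 ± 0.385 CPM in PACT KO cells (SD, n = 3 each; log2FC -0.80, SE 0.15). *GADD45A*, of the same family and with the same link, had 261, 214 and 239 reads in parental and 371, 282 and 243 in PACT KO dishes and was higher (log2FC 0.32, SE 0.10, FDR = 0.00756, edgeR). Also higher were *ZBTB4*, *ZBTB33* and *ZBTB38*, zinc finger proteins that bind methylated DNA, with log2FC of 0.18, 0.12 and 0.17, and these 4 genes were named after their values were seen.

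Methyl groups for both systems come from S-adenosylmethionine, and 14 genes of the methionine cycle were listed. Of the 12 tested, 4 were lower, 3 higher and 5 not called, with a median log2FC of -0.09, and none passed 1.5-fold. Both counts moved with the setting. In DESeq2, without any 1 of the parental dishes and without PACT KO replicate 1 or 3, 3 were lower and 2 higher. Under upper quartile scaling and with library totals alone, 3 were lower and 4 higher. *MTAP*, which returns the by-product of polyamine synthesis to methionine, fell from 51.5 ± 0.242 CPM to 41.9 ± 0.751 CPM (log2FC -0.30, SE 0.04). *AHCYL1*, related in sequence to the hydrolase that clears S-adenosylhomocysteine, rose from 226 ± 3.07 CPM to 258 ± 6.37 CPM (log2FC 0.19, SE 0.03).

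Of 11 further genes of PRC2 subunits or of proteins that act on PRC2, 10 were tested, all but *EZHIP*. In edgeR 4 were higher and 0 lower past the threshold, with a median log2FC of 0.07. DESeq2 called 3 higher and 0 lower, and 1 was lower at an unadjusted p under 0.05 in edgeR. Besides *EZH1*, the clearest was *JARID2*, which helps to recruit the complex, with 43.4 ± 1.76 CPM in parental and 49.0 ± 2.18 CPM in PACT KO cells (SD, n = 3 each). That is a log2FC of 0.17 (SE 0.04). The count of 4 was 2 without parental replicate 1, where 1 gene was lower, 2 without parental replicate 2 and 2 without PACT KO replicate 1.

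PRC1, the complex that places ubiquitin on histone H2A, had 26 genes listed and tested. At an FDR under 0.01, 8 were higher, 2 lower and 16 not called, with a median log2FC of 0.05, and none passed 1.5-fold. The count of lower genes was 0 without PACT KO replicate 1 and 1 without parental replicate 2, parental replicate 3 or PACT KO replicate 2. That of higher genes was 6 in DESeq2, 9 with library totals alone and 7 to 9 with single dishes left out. *PCGF2* and *PCGF5*, alternative subunits that define variants of the complex, had the smallest p values of the list. *PCGF2* rose from 128 ± 3.24 CPM to 157 ± 2.30 CPM (log2FC 0.29, SE 0.03), and *PCGF5* from 36.3 ± 1.51 CPM to 46.4 ± 0.935 CPM (log2FC 0.35, SE 0.04; SD, n = 3 each).

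Of 6 listed genes that oppose Polycomb, 5 were tested, 3 were higher and 1 lower, with a median log2FC of 0.22. The demethylases of lysine 27, *KDM6A* and *KDM6B*, were among the higher genes. *KDM6A* had 432, 452 and 440 CPM in parental and 500, 511 and 527 CPM in PACT KO dishes, a log2FC of 0.22 (SE 0.03, FDR = 1.72e-08, edgeR). *KDM6B* had 179, 188 and 180 CPM against 212, 211 and 223 CPM, a log2FC of 0.24 (SE 0.03, FDR = 1.58e-08, edgeR). Both were thus higher in every knockout dish while *EZH2* was lower in each. The 1 lower gene, *ASXL2*, lost its call when parental replicate 1, parental replicate 3, PACT KO replicate 1 or PACT KO replicate 3 was left out, and was chosen after its values were seen.

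Of 11 genes of histone H3 lysine 9 silencing, all tested, 3 were lower and 0 higher past the threshold in edgeR, with the same counts in DESeq2 and 2 higher at an unadjusted p under 0.05. The lower genes included *CBX5*, which encodes heterochromatin protein 1 alpha, at 330 ± 4.91 CPM in parental and 279 ± 2.18 CPM in PACT KO cells (log2FC -0.24, SE 0.03). *SUV39H1*, a methyltransferase of that lysine, had a log2FC of -0.36 (SE 0.07, FDR = 1.36e-04, edgeR). Its groups did not overlap.

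**Figure D5:**
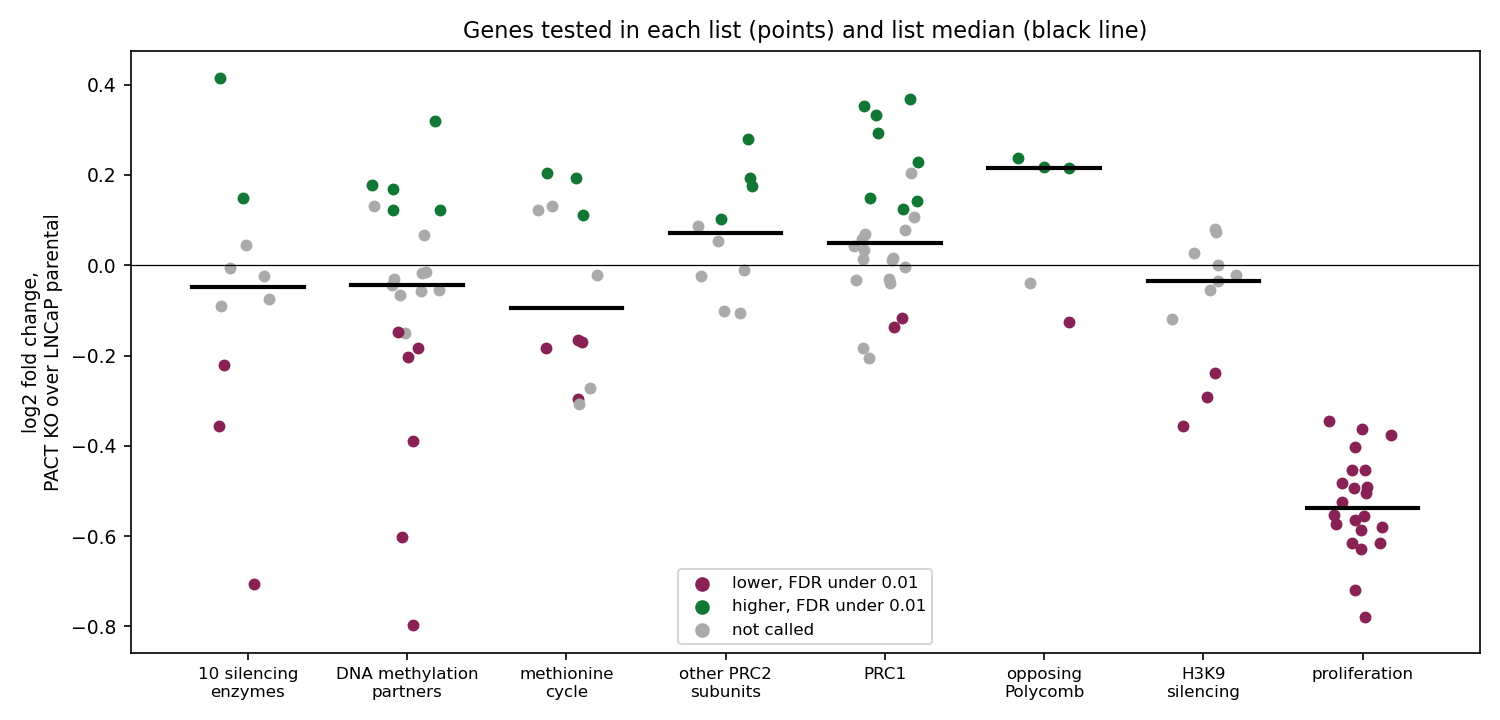
Log2 fold change in PACT KO over LNCaP parental cells of each tested gene (points, coloured by the call at an FDR under 0.01) in 8 lists, with the list median as a black line. The proliferation genes all lie below 0 with a median of -0.54, the genes opposing Polycomb have the highest median at 0.22, and the 10 silencing enzymes spread from -0.71 to 0.41.

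Genes known to be silenced by these enzymes were listed as well, and they moved both ways. Of 27 germline genes that DNA methylation keeps silent in somatic cells, 13 had at most 3 reads in every library and 11 were tested, with 4 higher, 4 lower and 3 not called. *MAGEC2* had 14, 14 and 12 reads in parental and 134, 117 and 92 in PACT KO dishes, a log2FC of 3.08 (SE 0.19). *PAGE1* (log2FC 1.97, SE 0.13) and *MAGEA1* (1.08, SE 0.10) were higher too. *MAGEC1*, of the same family, went from 46, 38 and 39 reads to 6, 5 and 4, a log2FC of -3.01 (SE 0.33). The remaining calls, named after their values were seen, were *ASZ1*, higher (log2FC 0.52), and *CTAG2* (-4.12), *MAGEA3* (-0.28) and *MAGEA6* (-0.27), lower. In parental cells *MAGEA3* had a mean of 121 CPM and *MAGEA6* of 87.5 CPM, so neither was silent there. Members of the MAGE and PAGE families are similar in sequence, so reads could have been split or lost between copies.

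Of 15 genes with promoter methylation reported in prostate cancer, 7 had at most 3 reads in every library, *GSTP1* among them with 2 reads in 1 parental dish and 0 elsewhere. Among the 6 tested, 4 were higher and 1 lower, with a median log2FC of 0.38. *RASSF2* had 244, 224 and 220 reads in parental and 626, 630 and 551 in PACT KO dishes (log2FC 1.39, SE 0.08). *TIMP3* had 23, 23 and 30 reads against 54, 38 and 41 (log2FC 0.80, SE 0.21). *GSTP1*, the gene most often methylated in prostate tumours, stayed undetected in PACT KO cells at this depth.

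Of 11 genes reported as repressed by EZH2, 7 were tested, with 3 higher and 1 lower and a median log2FC of 0.11. *CDKN1C*, an inhibitor of cyclin-dependent kinases, had 29, 28 and 40 reads in parental and 92, 83 and 47 in PACT KO dishes, a log2FC of 1.18 (SE 0.18).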

How the data were processed

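RNA-seq of polyA RNA was analysed in 3 dishes of LNCaP parental and 3 of PACT KO cells, grouped by the titles in the labels. The authors deposited whole-number counts of reads per gene, not normalized, listed by NCBI Gene number. The submitters' processing notes name STAR 2.5.3a, StringTie 1.3.3, featureCounts 1.5.3, bcl2fastq 2.20.0.422 and hg38, without their roles. Annotation and use of strand are not given in the sources used here. The row without a gene number (0.0688% to 0.0708% of counts) was left out. RefSeq (GRCh38.p14) gave symbols for 27540 of 29806 genes, coordinates and sequences.

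Genes were kept by filterByExpr, scaled by TMM and compared with glmQLFit and glmQLFTest in edgeR 4.0.16 (R 4.3.3), 2-sided, with Benjamini-Hochberg adjustment over 14462 genes at an FDR under 0.01. The fold threshold of 1.5 is that of the methods. The SE was the absolute log2 fold change over the square root of F. RPKM used TMM-scaled CPM and the union of exons of GENCODE release 29 basic transcripts, which may differ from the gene models of the authors. Ratios used log2(CPM + 0.5) and an exact permutation test in scipy 1.17.1. The main test was also run on simulated counts with a single dispersion for all genes. That setting is simpler than these data, so no support is drawn from it. Alternatives were DESeq2 1.42.0, limma-voom (limma 3.58.1), other scalings, filters and pseudocounts, a replicate block and each library left out.

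The 10 genes, the lists, drawn from general knowledge, and the tests were chosen with earlier results of these data known. From each list, genes past the FDR and 1.5-fold were named, at most the 4 with the smallest p, or the 2 smallest p where fewer than 2 passed, together with *PRKRA*, *EZH1* and *UHRF2*. Some genes of these lists are not reported here by name. Replicates were dishes, so p-values measure the spread between dishes. Replicate pairs differed by 1.55 to 3.63 times the variance of sampling noise.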

Additional observations from a re-analysis of the deposited data

How the results depend on the processing

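The counts of 3 lower and 2 higher enzymes were the same under each of the 14 alternatives to the main test, scaling, filter, block and set of libraries. The log2 fold change ranged from -0.37 to -0.33 for *DNMT1*, from -0.73 to -0.67 for *UHRF1*, from -0.24 to -0.19 for *EZH2*, from 0.36 to 0.47 for *TET1* and from 0.13 to 0.18 for *TET2*. With a threshold of 2-fold in place of 1.5-fold, 0 of the 10 genes passed. The sign of genes that were not called turned in places. *DNMT3A* was at 0.018 and *EED* at 0.0011 under upper quartile scaling, and at 0.023 and 0.0063 with library totals alone. With single libraries left out, *DNMT3A* ranged from -0.017 to 0.016, *DNMT3B* from -0.14 to 0.0053, *EED* from -0.071 to 0.017, *SUZ12* from -0.13 to -0.04 and *TET3* from 0.03 to 0.07. The cause was not tested. Over all genes, 2255 to 2747 were lower and 1707 to 2731 higher. Other scalings moved the median of all genes by at most 0.03 on the log2 scale. The 9 ratios moved by less than the spread between dishes with a pseudocount of 0 or 1 CPM or with a library left out, although without parental replicate 2 the difference in *EZH2* to *EED* was -0.12 against -0.20 and that in *DNMT3B* to *DNMT3A* 0.0088 against -0.06, and without parental replicate 3 the latter was -0.12. With the replicate number as a block, 2631 genes were lower and 2139 higher, and 3 and 2 of the 10 enzymes. Same-numbered dishes did not deviate together (correlations of -0.094, 0.0029 and -0.086, against -0.083 to 0.153 for dishes of unlike number). With 3 dishes per group centred on their mean, this check cannot settle whether the dishes were handled in pairs. Among the lists, the higher methylation partners were 3 in DESeq2 against 5. The lower PRC1 genes were 1 against 2 and the lower genes opposing Polycomb 0 against 1 in DESeq2, upper quartile scaling and library totals alone. The last 2 scalings also left 2 lower luminal markers against 4. A filter of 1 CPM in 3 libraries left 0 lower EZH2-repressed genes against 1. Under upper quartile scaling and library totals alone, the higher EZH2-repressed genes were 4 against 3. The higher genes of the germline list and of the prostate methylation list were 5 against 4 each under the same 2 scalings. In DESeq2 they were 3 each, and with single libraries left out 3 to 5. In levels per length, with the longest transcript in place of the union of exons, an alternative added after seeing the data, *EED* ranked above *TET3*, and *TET2* above *UHRF1* and *DNMT3A*.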
